A study of Mus musculus with 8 samples.

Results

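The collagen genes were taken as all autosomal protein-coding genes of the mouse annotation (GENCODE M21, mm10) whose symbol has the form Col, a number, a and a number. This rule found 42 of 20807 genes, 11 coding for fibril-forming chains, 6 for chains of basement membranes and 25 for other collagens. H3K27ac, acetylation of histone H3 at lysine 27, marks active promoters and enhancers, and was profiled by ChIP-seq in 4 breast tumors from BALB/c mice, each tumor from a separate mouse. The 2 control tumors (PyMT;Rag1KO, called tumor in the sample titles) carried the polyoma middle T oncogene, driven in mammary epithelium by the MMTV promoter, and lacked Rag1, so that the hosts made no mature T or B cells of their own. The 2 test tumors (K14-TSLPtg;PyMT;Rag1KO, called cyst) carried in addition the cytokine TSLP under the keratin 14 promoter, which is active in basal epithelial cells such as those of the skin. All mice were given wild-type CD4+ T cells when 4 weeks old, and tumors were taken at terminal size.

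Collagens are trimeric matrix proteins whose chains wind into a triple helix. Fibrillar collagens such as types I, III and V assemble into the fibers of connective tissue and are made mainly by fibroblasts. Type IV collagen forms the sheet-like network of basement membranes under epithelium and around vessels, and types XV and XVIII sit at basement membrane borders. The remaining types decorate fibrils, form beaded filaments or span the cell membrane.

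The deposited lists give peak positions without height, so the graded measure was coverage, the percent of bases that lay in peaks, either within 10 kb of the transcription start site (TSS, here called the window) or along the gene body. The lists held 69861 intervals in control 1 and 67850 in control 2, against 65763 in test 1 and 59762 in test 2, and between 2.57% and 2.92% of the autosomal genome lay in peaks. Read depth is unknown, and test 2 had both the fewest intervals and the smallest share of the genome in peaks. With 2 tumors a group, an exact permutation test cannot give a p below 0.333, so no group difference given here could pass a threshold of 0.05 in that test. In bulk tumor, fewer cells of a type and less acetylation per cell cannot be told apart.

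Peaks reached 36 of the 42 collagen genes in at least 1 tumor, 24 in the window and 32 in the body. The 6 without any peak were Col10a1, Col13a1, Col20a1, Col26a1, Col6a4 and Col6a5. Overlapping peaks from the 4 tumors were merged, and a merged region was called control-only when the 2 control tumors had a peak there and the 2 test tumors had none, and test-only in the reverse case. Collagen loci (body and window) held 272 regions, of which 62 (22.8%, against 38.2% of all autosomal regions) were present in all 4 tumors, 21 were control-only and 0 were test-only. The control-only regions lay mostly inside genes, 15 in introns and 4 overlapping an exon, with 1 at a promoter (Col8a2) and 1 upstream of Col7a1 within the neighbouring Uqcrc1.

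The middle 300 bases of the 5 widest control-only regions are printed. These regions held a peak in both control tumors and none in the test tumors. Peaks differ in extent, so the printed bases need not lie in a peak of each control tumor. Those of Col4a1 lie mostly outside the control 2 peak, and those of Col4a2 almost wholly outside the control 1 peak. A region in the first intron of Col1a2 was added after its values were seen. All are from the reference assembly (GRCm38/mm10, C57BL/6J), not from the tumors, and are written on the top strand, 5′ to 3′. Capitals mark matches on either strand to TGANTCA (AP-1), GGAATG (TEAD), CCAAT (NF-Y), GGGCGG (Sp1) or TATAAA (the TATA box). None of the printed bases is exonic.
Col9a3, chr2:180610943-180611242, from a region that spans exon 23: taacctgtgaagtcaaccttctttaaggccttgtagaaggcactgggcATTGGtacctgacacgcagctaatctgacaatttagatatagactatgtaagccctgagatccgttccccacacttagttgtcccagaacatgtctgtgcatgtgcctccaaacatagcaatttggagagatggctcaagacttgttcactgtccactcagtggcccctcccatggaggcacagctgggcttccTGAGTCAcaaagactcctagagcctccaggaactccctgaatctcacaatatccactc
Col15a1, chr4:47311543-47311842, from a region that spans exon 40: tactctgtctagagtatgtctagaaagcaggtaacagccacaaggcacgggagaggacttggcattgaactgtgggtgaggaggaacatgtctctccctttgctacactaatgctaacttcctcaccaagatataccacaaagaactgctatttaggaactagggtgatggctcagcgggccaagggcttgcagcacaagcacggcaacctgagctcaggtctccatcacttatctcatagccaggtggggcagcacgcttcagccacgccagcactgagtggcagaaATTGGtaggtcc
Col4a1, chr8:11250504-11250803, intron 2: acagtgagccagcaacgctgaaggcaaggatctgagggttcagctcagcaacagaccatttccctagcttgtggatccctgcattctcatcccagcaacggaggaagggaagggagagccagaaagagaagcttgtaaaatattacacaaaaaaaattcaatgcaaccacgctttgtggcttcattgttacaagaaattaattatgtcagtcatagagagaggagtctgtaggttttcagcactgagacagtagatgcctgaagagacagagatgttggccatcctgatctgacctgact
Col4a2, chr8:11395426-11395725, intron 4: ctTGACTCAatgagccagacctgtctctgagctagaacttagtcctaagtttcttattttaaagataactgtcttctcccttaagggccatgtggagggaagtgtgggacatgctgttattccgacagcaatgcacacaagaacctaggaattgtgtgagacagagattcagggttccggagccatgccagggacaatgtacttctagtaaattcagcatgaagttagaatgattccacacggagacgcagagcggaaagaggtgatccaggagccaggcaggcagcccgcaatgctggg
Col6a3, chr1:90838639-90838938, intron 1: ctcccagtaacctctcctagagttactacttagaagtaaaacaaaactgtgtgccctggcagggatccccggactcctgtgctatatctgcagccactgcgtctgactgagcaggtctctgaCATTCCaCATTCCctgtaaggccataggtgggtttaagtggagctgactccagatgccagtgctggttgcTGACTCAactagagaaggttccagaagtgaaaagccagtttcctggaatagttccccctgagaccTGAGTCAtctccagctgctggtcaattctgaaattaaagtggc
Col1a2, chr6:4506537-4506836, intron 1: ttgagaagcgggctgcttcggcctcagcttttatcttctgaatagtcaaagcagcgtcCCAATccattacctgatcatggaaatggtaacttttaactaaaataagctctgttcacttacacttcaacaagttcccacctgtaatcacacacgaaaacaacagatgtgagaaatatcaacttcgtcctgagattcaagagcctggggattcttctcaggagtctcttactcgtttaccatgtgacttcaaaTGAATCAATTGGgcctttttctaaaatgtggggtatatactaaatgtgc

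An AP-1 match lay in the printed bases of Col9a3, Col4a2, Col6a3 and Col1a2 but not in those of Col15a1 or Col4a1, and in the Col1a2 intron it directly adjoined an NF-Y match. The Col4a2 match lay outside the control 1 peak. Over whole sets, 4 of the 21 control-only collagen regions (19%) held TGANTCA in their middle 300 bases, against 10.2% of all 89238 autosomal regions and 8.81% of the 3055 autosomal control-only regions. The TEAD letters were in 5 of the 21 (23.8%) against 16.5% of all regions, and the NF-Y letters in 6 (28.6%) against 30.8%. The Sp1 and TATA letters were each in 2 of the 21 (9.52%), against 10.7% and 14.7%. RefSeq promoters (300 bases around a start) were on hand for 33 collagen genes with 36 starts, and 21 of the 36 (58.3%) held the Sp1 letters, against 36% of all 31396 autosomal promoters. A match is a description of letters and not a binding site.

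Basement membrane collagens showed the widest gap between the groups. Their mean window coverage was 8.27% in control 1 and 9.98% in control 2, against 4.22% in test 1 and 1.62% in test 2, so both control tumors lay above both test tumors. The means were 9.13% ± 1.20 in control and 2.92% ± 1.84 in test tumors (SD, n = 2 each), a difference of -6.20 percentage points (exact permutation p = 0.333). Over all autosomal coding genes the same measure was 9.18%, 9.23%, 9.85% and 8.60%, a difference of 0.0193. Without test 2 the basement membrane difference was -4.90 points. Scaled to the genome covered in each tumor it was -6.15. It rests on 1 locus, because it was -3.93 points with Col4a1 and Col4a2 counted once and -0.530 without them, and with the median in place of the mean over the 6 genes it was -1.06.

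**Figure D1:**
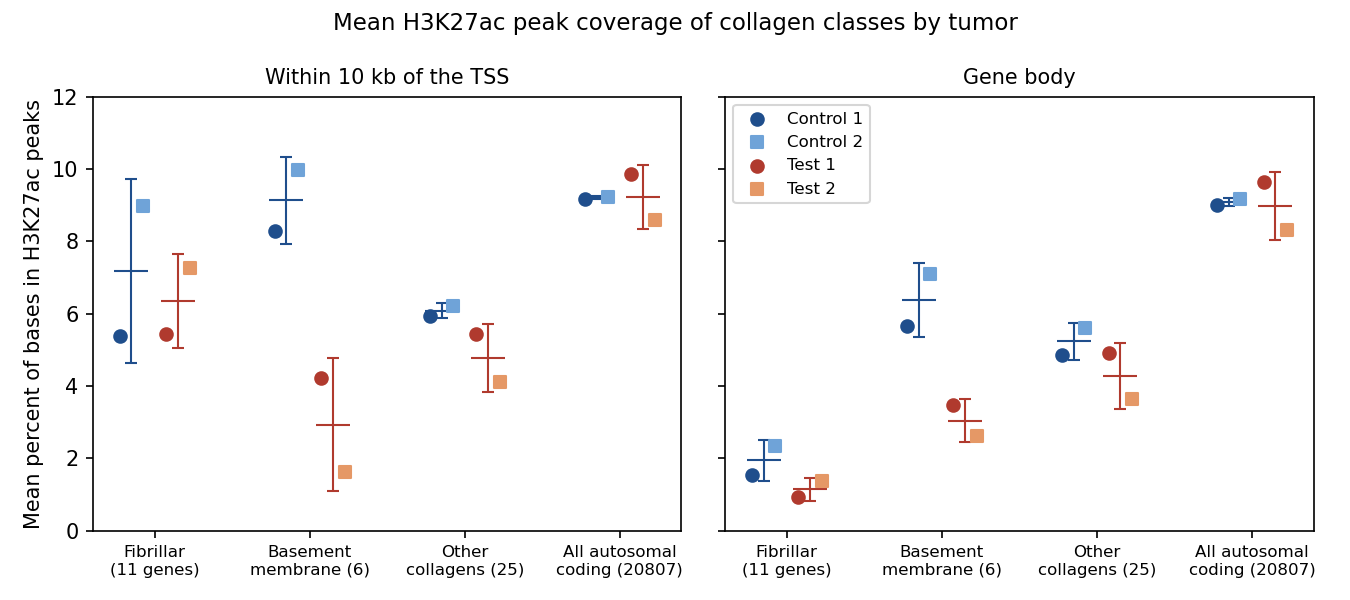
Mean percent of bases in H3K27ac peaks (vertical axis) for fibrillar, basement membrane and other collagens and for all autosomal coding genes, in the window (left) and the gene body (right), with a point for each tumor and bars for the group mean and SD (n = 2). In the window the basement membrane points of the control tumors (8.27% and 9.98%) lie above those of the test tumors (4.22% and 1.62%), while the points of all coding genes lie between 8.60% and 9.85%.

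Col4a1 and Col4a2 code for the chains of the common type IV network and are transcribed away from each other, with starts 21 bp apart on chromosome 8 (Col4a1 at 11198423 to 11312826 on the minus strand, Col4a2 at 11312805 to 11449287 on the plus strand), so that their windows are nearly the same and are not independent, although the class means count them as 2 genes. Window coverage of Col4a1 was 23.5% in control 1 and 28.2% in control 2, against 12.3% in test 1 and 4.44% in test 2. Both control tumors were higher than both test tumors, and test 2 was the lowest. The means were 25.9% ± 3.31 and 8.35% ± 5.53 (SD, n = 2), a difference of -17.5 points. Every tumor had a peak at the shared start, which held the widest peak region of the locus, present in all 4 tumors. The start itself is not printed, because those bases are transcribed untranslated sequence.

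Across both gene bodies the pair held 27 peaks in control 1 and 56 in control 2, against 23 in test 1 and 12 in test 2, which covered 23.7, 39.97, 14.7 and 7.13 kb. Number and length were both highest in control 2 and lowest in test 2. The widest peak was 3.42 and 4.78 kb in the control tumors and 2.55 and 2.17 kb in the test tumors. Of the 21 control-only regions in collagen loci 8 were in this pair, 3 in introns 1 and 2 of Col4a1 and 5 in introns 3 and 4 of Col4a2. The intron 2 and intron 4 sequences printed above are the widest of these. Body coverage was 8.72%, 14.4%, 5.81% and 3.14% for Col4a1, in the order control 1, control 2, test 1 and test 2, and 10.1%, 17.2%, 5.91% and 2.61% for Col4a2.

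**Figure D2:**
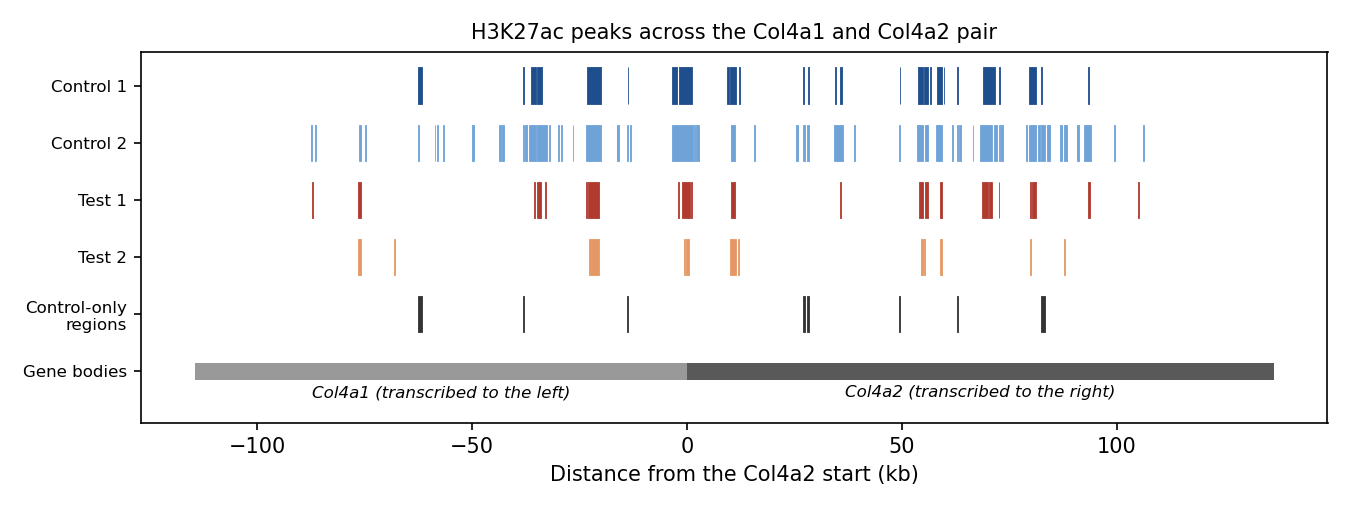
Peaks of each tumor across the Col4a1 and Col4a2 pair, with distance from the Col4a2 start in kb on the horizontal axis, a row of bars for each tumor, a row for the control-only regions and gray bars for the gene bodies. The tumors hold 27, 56, 23 and 12 peaks from top to bottom, and the 8 control-only regions lie away from the shared start at 0.

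The other basement membrane chains held little or no coverage near their starts. Col18a1, whose C-terminal fragment is endostatin, had a window coverage of 2.58% and 3.45% in control and 0.84% and 0.95% in test tumors, without overlap. That separation was lost with windows around every annotated coding start, where the difference was -0.166 points, and with peaks of at least 1 kb, where it was 0. Col15a1, its close relative, had none in the window, and its body coverage was 9.90% in control 1 and 5.38% in control 2, against 4.36% in test 1 and 5.10% in test 2. The control values exceed the test values, but control 2 and test 2 lie close together. Col15a1 also held 2 control-only regions, at the 3′ end of the gene. Col4a3 and Col4a4, chains of the specialised network of kidney and lung whose starts lie 72 bp apart, had no window coverage in any tumor. Body coverage of Col4a4 was 1.18% and 1.15% in control and 1.27% and 1.71% in test tumors, so the test tumors were the higher ones.

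Fibrillar collagens did not separate the groups near their starts. Mean window coverage was 5.39% in control 1 and 8.98% in control 2, against 5.44% in test 1 and 7.27% in test 2, with overlapping groups and a difference of -0.830 points (exact permutation p = 1). The sign depended on single tumors, since the difference was 0.966 without control 2 and 0.0861 without test 1. Mean body coverage was 1.53%, 2.35%, 0.917% and 1.37%, a difference of -0.798 points (exact permutation p = 0.333), with the control tumors higher, which was -0.391 without control 2 and -1.20 without control 1.

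Of the chains of type I collagen, the main protein of fibrous tissue, Col1a1 had a window coverage of 10.5% in control 1 and 3.19% in control 2, against 6.10% in test 1 and 3.21% in test 2. The groups overlapped, as control 2 was the lowest. Col1a2 had 3.46% and 2.33% in control tumors and 0% in both test tumors, and the control-only intron 1 region printed above accounts for part of that coverage. Col3a1, the type III chain, had 2.36% and 2.79% in control and 2.37% and 0% in test tumors, with test 1 between the control tumors, and it too held a control-only region in intron 1.

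Type V collagen regulates fibril thickness. Col5a2 had a window coverage of 5.57% and 7.05% in control and 3.11% and 0% in test tumors, without overlap. Col5a1 had none in the window, and its body coverage was 0.20% and 0.55% in control tumors and 0% in both test tumors, with a control-only region over exon 43 and a further region in control 2 alone. Col27a1, a cartilage fibril chain, went the other way, with 1.39% and 4.43% in control and 6.09% and 12.9% in test tumors, so both test tumors were above both control tumors.

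The highest fibrillar values were not group differences. Col11a1 had a window coverage of 17.8% in control 1 and 42.7% in control 2, against 23.1% in test 1 and 48.7% in test 2, and 1 tumor of each group was high. Col2a1, the main cartilage collagen, had 15.8% in control 2 and 0% in the other 3 tumors. The window of Col11a2 was covered at 18.1%, 20.5%, 19.1% and 15.2%, but all of it lay in the neighbours Slc39a7 and Rxrb and its own body had none.

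**Figure D3:**
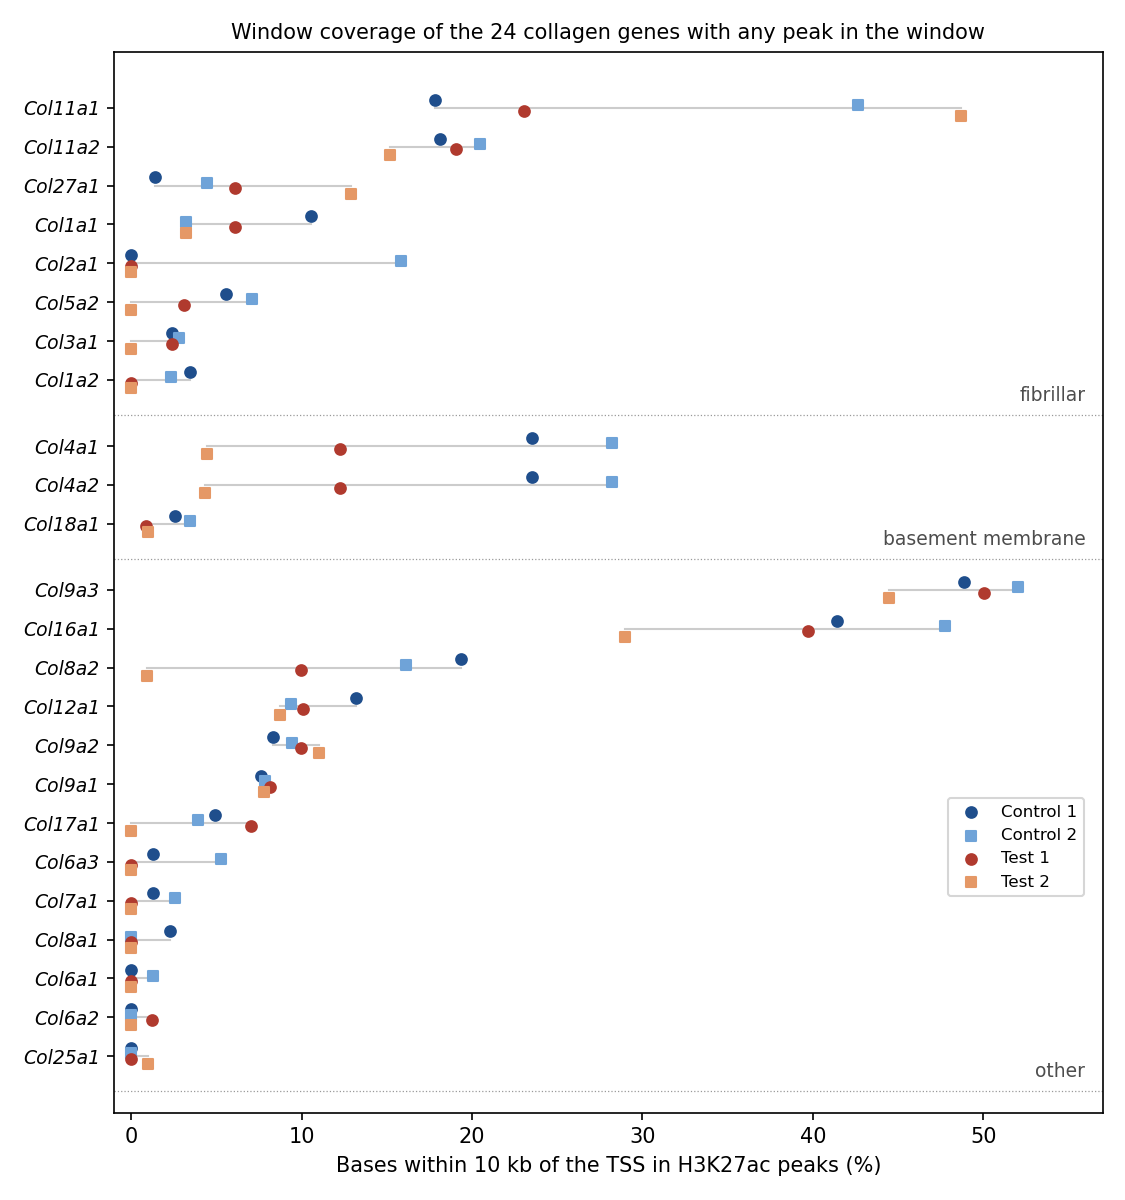
Percent of bases within 10 kb of the TSS in H3K27ac peaks (horizontal axis) for each of the 24 collagen genes with coverage in any tumor, grouped by class, with a marker for each tumor and a gray line over their range. The control markers of Col4a1 and Col4a2 (23.5% and 28.2%) lie to the right of the test markers, and Col27a1 shows the reverse, while Col11a1 and Col2a1 spread without regard to group.

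The contrast of fibrillar minus basement membrane window coverage within a tumor was -2.89 points in control 1 and -0.998 in control 2, against 1.21 in test 1 and 5.65 in test 2. It was negative in both control and positive in both test tumors, a difference of 5.37 points between the groups (exact permutation p = 0.333), which was 3.15 without test 2. It too rested on the type IV pair, since it was 3.10 with Col4a1 and Col4a2 counted once, -0.300 without them and with class medians -0.527. In the profile around the start, the basement membrane class peaked in the first kb downstream, at 41.95% and 44.8% of bases in control and 31.4% and 17.3% in test tumors.

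**Figure D4:**
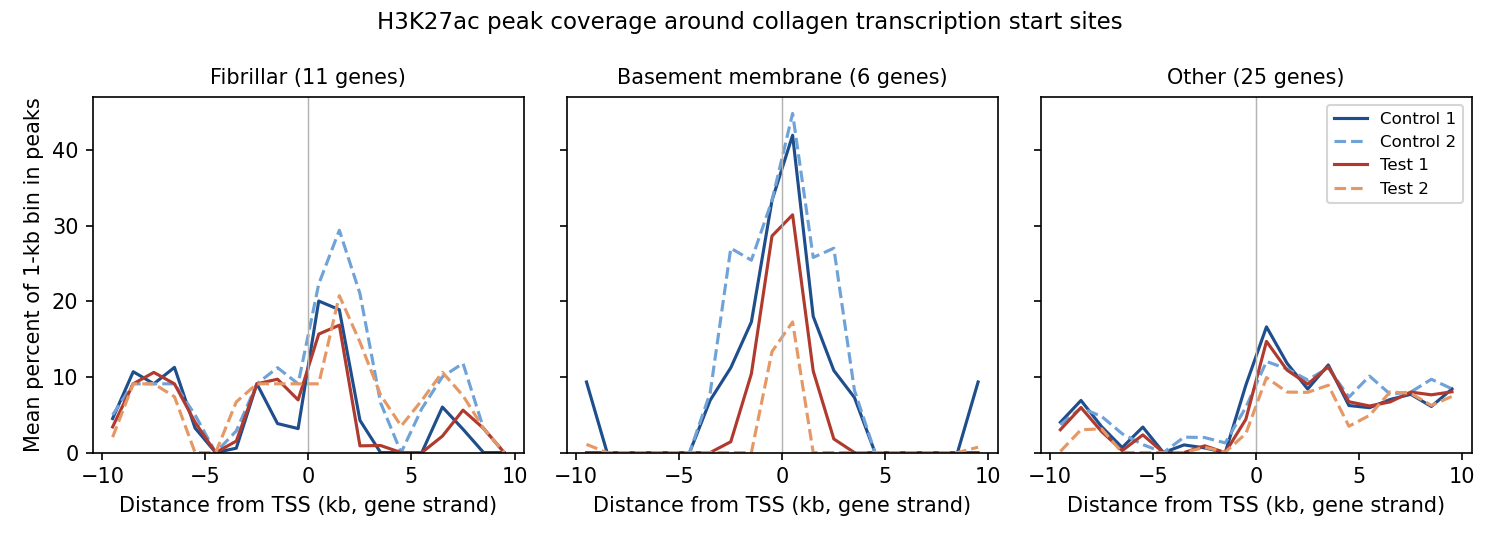
Mean percent of each 1-kb bin in peaks (vertical axis) against distance from the TSS in kb along the gene strand, in panels for fibrillar, basement membrane and other collagens with a line for each tumor. The basement membrane lines of the control tumors reach 41.95% and 44.8% just downstream of the start and those of the test tumors 31.4% and 17.3%, while the lines of the other classes cross.

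The 25 other collagens had a mean window coverage of 5.94% in control 1 and 6.22% in control 2, against 5.45% in test 1 and 4.11% in test 2, a difference of -1.30 points (exact permutation p = 0.333) with the control tumors higher, which was -0.633 without test 2 and -1.96 without test 1. Their median was 0 in every tumor, and 13 of the 25 had window coverage in at least 1. Type VI collagen forms beaded filaments around cells. Col6a3 had 1.28% and 5.24% in control tumors and 0% in both test tumors, and it held 2 control-only regions, of which the one in intron 1 is printed above. Col6a1 had 1.29% in control 2 alone and Col6a2 had 1.22% in test 1 alone, so neither separated the groups.

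Col8a2, a short-chain network collagen known from the cornea, had a window coverage of 19.3% and 16.1% in control and 9.97% and 0.92% in test tumors, without overlap. Of these peak bases 31.1% lay in its own gene. The widest region of the window extended beyond it into the neighbour Trappc3, which itself lies outside the window. Col16a1, which associates with fibrils, had 41.4% and 47.8% in control and 39.7% and 29.0% in test tumors, and control 1 and test 1 were close. Col7a1, the anchoring fibril chain of skin, had 1.26% and 2.55% in control and 0% in test tumors, all of it in Uqcrc1, with none in its own body.

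Among type IX chains, which sit on cartilage fibrils, Col9a2 had a window coverage of 8.31% and 9.41% in control and 9.97% and 11% in test tumors, with the test tumors higher. Col9a3 was the most covered collagen window, at 48.9%, 52.01%, 50.03% and 44.5%, with test 1 between the control tumors. Body coverage of Col9a1 was 12.3% and 15.8% in control and 17.1% and 16.8% in test tumors, higher in both test tumors. Col25a1, a transmembrane collagen of neurons, had a body coverage of 6.68% and 7.20% in control and 5.06% and 2.89% in test tumors, higher in both control tumors.

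The remaining collagens had little coverage or overlapping groups. Col12a1, a fibril-associated chain, had a window coverage of 13.2% and 9.38% in control and 10.1% and 8.74% in test tumors. Col17a1, the hemidesmosome collagen of basal epithelium, had 4.88% and 3.93% in control and 7.02% and 0% in test tumors, so that test 1 was the highest and test 2 the lowest. The Col9a1 window lay between 7.62% and 8.12% in all tumors. Col8a1 had a window peak in control 1 alone, at 2.24%, and Col25a1 in test 2 alone, at 0.98%. Col14a1, Col19a1, Col22a1, Col23a1, Col24a1, Col28a1, Col5a3 and Col6a6 had coverage in the body but none in the window, and their body values lay at or below 3.82% in every tumor.

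Counted over members, 9 of the 24 covered windows (37.5%) were higher in both control than in both test tumors, against 11.7% of the 14382 coding genes with coverage. These were Col4a1, Col4a2, Col18a1, Col1a2, Col5a2, Col6a3, Col7a1, Col8a2 and Col16a1. The reverse held for 2 of 24, Col27a1 and Col9a2, against 20.9%. Col4a1 and Col4a2 count separately here although they share a window. By construction, leaving out a tumor can only keep or raise these counts. The count of 9 was 14 without control 1 and 14 without test 1. The count of 2 was 4 without control 2, 4 without test 1 and 5 without test 2. With peaks of at least 1 kb only, the counts were 4 and 0, and the differences of Col1a2, Col6a3, Col7a1 and Col18a1 were then 0, while the groups overlapped for Col5a2, Col27a1 and Col9a2. With windows of 2.5 kb the differences of Col6a3 and Col7a1 were 0. The groups also overlapped for Col5a2 with windows of 25 kb either side, for Col16a1 with peaks joined within 1 kb and for Col9a2 with coverage scaled to the genome covered. The median window difference was -2.01 points over the 24 members, 18 lower and 6 higher in test tumors, against 0.272 over all covered genes, with 6150 lower and 8223 higher. By class it was -2.19 for 8 fibrillar genes, -17.5 for 3 basement membrane genes, among them the pair that shares a start, and -1.12 for 13 others.

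In gene bodies 11 of 32 collagen genes were higher in both control tumors, against 13.5% of 14136 covered genes, and 5 of 32 were higher in both test tumors, against 18.0%. The 11 were Col4a1, Col4a2, Col15a1, Col18a1, Col1a2, Col5a1, Col5a2, Col6a3, Col6a6, Col8a1 and Col25a1, and the 5 were Col27a1, Col4a4, Col9a1, Col9a2 and Col14a1. Mean body coverage over the 42 genes was 4.10%, 4.96%, 3.66% and 2.89%, in the order control 1, control 2, test 1 and test 2, a difference of -1.26 points (exact permutation p = 0.333) with both control tumors higher, which was -0.829 without control 2. Over all coding genes the difference was -0.114.

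A control-only region lay in 13 of the 42 collagen loci, against 8.29% of all autosomal coding loci, and a test-only region in 0 of 42, against 4.34%. Collagen genes are long, with a median body of 110.9 kb against 17.6 kb, so counts per length are given as well. Control-only regions numbered 13.1 per Mb in basement membrane loci, 2.60 in fibrillar and 2.42 in other collagen loci, 4.02 over all collagen loci and 1.80 over all coding loci. Regions of any pattern numbered 123 per Mb in basement membrane, 40.7 in fibrillar and 39.6 in other collagen loci. Over all collagen loci they numbered 52.1 per Mb, and over all coding loci 55.1. The control-only share of regions was 10.6% in basement membrane, 6.38% in fibrillar and 6.11% in other collagen loci. Most of the 10 control-only regions in basement membrane loci lay in the Col4a1 and Col4a2 pair. Of all regions in collagen loci 7.72% were control-only and 0% test-only, against 3.27% and 1.47% in all coding loci. Leaving out a tumor raises such counts by construction. Control-only regions in collagen loci then numbered 96 without control 1, 48 without control 2, 46 without test 1 and 23 without test 2, and test-only regions 2, 4, 20 and 14. The locus count of 13 became 25 without control 1, and the count of 0 became 2 without control 1, 4 without control 2 and 12 without either test tumor.

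A promoter peak, within 1 kb of the TSS, was present in 14 collagen genes in control 1 and 11 in control 2, against 12 in test 1 and 8 in test 2, and the groups overlapped (exact permutation p = 0.667). The mean difference of -2.5 genes ranged from -4.5 to -0.5 when single tumors were left out. In both control and neither test tumor there were 0 collagen promoters, against 0.548% of all coding genes, and in the reverse pattern 0, against 0.317%, shares so low that 0 of 42 does not set collagens apart. A promoter peak in all 4 tumors was found in 8 of 42 genes, against 50.9%, and none in any tumor in 27 of 42, against 41.4%. The 8 were Col4a1, Col4a2, Col18a1, Col11a1, Col12a1, Col16a1, Col9a2 and Col9a3.

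A fit across all 14382 covered genes with limma and Benjamini-Hochberg adjustment called 0 genes at an adjusted p under 0.05 (0%), collagens included, where the smallest adjusted p was 0.913. At an unadjusted p under 0.05 there were 722 genes (5.02%) and 7 of the 24 collagens, namely Col4a1, Col4a2, Col18a1, Col1a2, Col5a2, Col7a1 and Col8a2, all lower in test tumors. These are not 7 independent genes, since Col4a1 and Col4a2 share a window, and the Col7a1 coverage lay in Uqcrc1.

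Genes that process or surround collagen were examined as 7 lists, beside a share of 42.8% of all covered genes with a lower mean in test tumors. Window coverage of the crosslinking enzymes had a mean difference of -2.02 points (-0.256 without control 2 and -3.79 without control 1), with 5 of 5 covered genes lower in test tumors, although in 4 of them the groups overlapped. That of fibril-associated matrix genes differed by -1.77 (-0.905 without control 1 and -0.925 without test 2), with 8 of 9 lower. Loxl1, which crosslinks collagen and elastin, had 6.94% and 8.45% in control and 2.29% and 0% in test tumors. Dcn (decorin), a proteoglycan on fibrils, had 4.16% and 7.69% in control and 0% in test tumors. Fbln2 and Fn1, the matrix proteins fibulin 2 and fibronectin, were also higher in both control tumors, with differences of -5.44 and -4.52 points. Fbln2 had 9.01% and 8.33% in control, 6.47% in test 1 and 0% in test 2.

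For folding and modification genes the mean difference was -2.10 but the median 0.240, with 7 of 15 covered genes lower, near the share of all genes, and the mean difference was -0.742 without control 2. Sparc, a collagen-binding matrix protein, had the largest difference of these, with 32.8% and 31.6% in control and 18.1% and 7.04% in test tumors. P4ha2, a prolyl hydroxylase of collagen chains, had 12.1% and 10.3% in control and 9.38% and 0% in test tumors. P3h4, which takes part in collagen modification and shares its window with Fkbp10, differed by -4.01 points.

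In the remaining lists the groups overlapped. Basement membrane partners had means of 16.5% and 17.0% in control and 17.2% and 14.3% in test tumors, with test 1 the highest, and the difference was -1.04 points, or 0.446 without test 2. The laminin chain Lamc1 had 14.1% and 22.4% in control and 11.2% and 8.02% in test tumors, whereas the proteoglycan Agrn (agrin) had 55.2% and 63.7% in control and 67.9% and 65.9% in test tumors.

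Collagen receptors had means of 10.9% and 10.3% in control and 10.6% and 8.09% in test tumors, a difference of -1.24 points that was 0.0253 without test 2. The uptake receptor Mrc2 (-4.64) and the integrin chain Itga1 (-1.46) were higher in both control tumors, and the receptor kinase Ddr2 (0.747) in both test tumors. Mrc2 had 1.36% in control 1, 7.92% in control 2 and 0% in the test tumors. Breakdown genes had means of 16.4% and 14.04% in control and 15.6% and 9.86% in test tumors, a difference of -2.49 points that was 0.36 without test 2, and the protease Mmp14 (-1.08) was higher in both control tumors. Secretion and propeptide removal differed by 0.343 points, or -0.084 without test 1, and Adamts3, a procollagen peptidase, was higher in both test tumors by 6.27 points. Adamts3 had 7.63% and 7.33% in control, 11.2% in test 1 and 16.3% in test 2.

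The cell types that make collagen were read from their markers in the same windows. The mean over 16 fibroblast markers was 3.73% in control 1 and 4.81% in control 2, against 3.27% in test 1 and 1.67% in test 2, and 7 of 10 covered markers were lower in test tumors, against 42.8% of all covered genes. Prrx1, a mesenchymal transcription factor, had 18.3% and 19.6% in control and 7.90% and 0% in test tumors, while Dpep1 was higher in both test tumors, the means of Pi16 and Clec3b were also higher in test tumors, and Thy1, Fap, Dpt, Lum, Twist2 and Tcf21 were at 0% in every tumor. The mean over 13 endothelial markers was 4.16%, 2.26%, 1.62% and 1.06%, and 9 of 10 covered markers were lower in test tumors. The adhesion molecules Pecam1 and Cdh5 differed by -6.22 and -4.35 points, and Tie1, Erg and Cldn5 were at 0% in every tumor. The mean of each of these lists was lower in both test tumors, with 2 of 10 covered fibroblast and 4 of 10 covered endothelial markers higher in both control than in both test tumors, against 11.7% of all covered genes. Without test 2 the mean differences were -0.9999 and -1.58 points, and without control 1 the endothelial one was -0.914. Their part in the collagen result was not tested.

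The epithelial markers did not share that order. The mean over 10 luminal markers was 41.2%, 37.6%, 41.6% and 39.4%, in the order control 1, control 2, test 1 and test 2, with overlapping groups and Cldn3 and Epcam higher in both test tumors. Mean differences were -0.608 points for pericyte and smooth muscle markers (median 0.905), 0.233 for myoepithelial markers (median -0.865) and 0.305 for adipocyte markers, of which 2 of 7 were covered. Of the pericyte and smooth muscle markers, Mcam (-10.96) was higher in both control tumors, and Tagln (3.29) and Notch3 (1.33) in both test tumors. The myoepithelial mean was 5.72% in control 1 and 6.13% in test 1 against 2.62% in control 2 and 2.68% in test 2, so these markers split the tumors across the groups. The sign of the pericyte and myoepithelial differences changed when single tumors were left out, as did that of the luminal and adipocyte differences. Myeloid markers had means of 17.0% and 15.4% in control and 16.2% and 11.4% in test tumors, a difference of -2.40 points that was -0.00815 without test 2. Of 10 covered myeloid markers 8 were lower in test tumors. Spi1, Tyrobp, Itgam and Mrc1 were higher in both control tumors, with differences of -15.1, -10.8, -1.82 and -0.875 points, and Fcgr3 in both test tumors, with 2.62. Spi1 had 32.8% and 27.6% in control and 23.8% and 6.45% in test tumors, and Itgam 0.775% and 2.87% in control and 0% in test tumors. The mean over T cell markers was 0.530% and 1.63% in control and 0.301% and 0.357% in test tumors, so both control tumors were higher. These values are low, and 7 of 8 covered markers were lower in test tumors. Cd2 and Lck were higher in both control tumors. Cd3e was higher in both test tumors, at 0% and 0.790% in control and 1.27% and 1.01% in test tumors. The T cell mean differed by -0.753 points, or -0.201 without control 2.

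**Figure D5:**
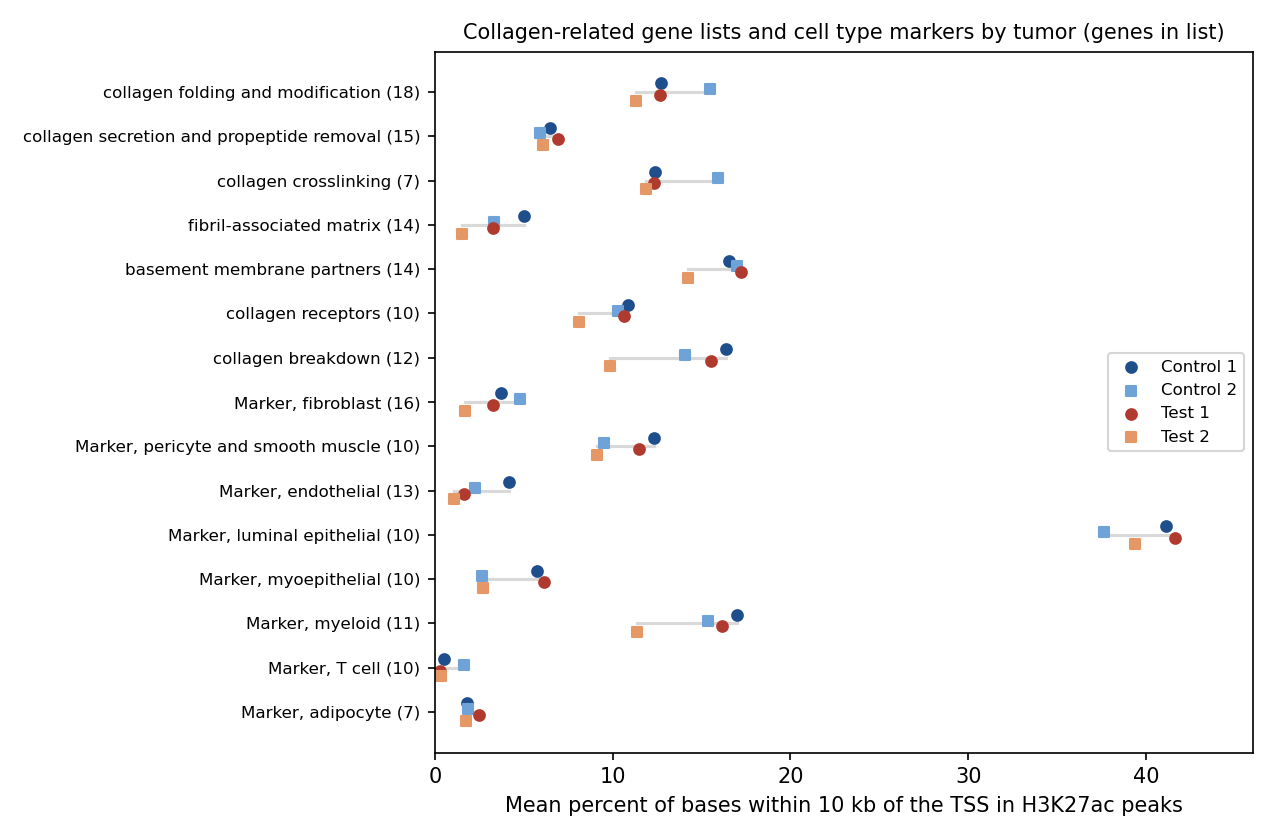
Mean percent of bases within 10 kb of the TSS in peaks (horizontal axis) for 7 lists of collagen-related genes and 8 lists of cell type markers, with a marker for each tumor and the number of genes in brackets. Fibroblast and endothelial lists are lowest in test 2, at 1.67% and 1.06%, and the luminal list is high in every tumor, from 37.6% to 41.6%.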

How the data were processed

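H3K27ac ChIP-seq peak lists of 4 tumors were analysed, 2 per group, grouped by genotype. Tumor numbers are names only. Per the submitters' processing notes and the study's methods, the authors used BWA to align reads to mm10 and MACS2 for a separate peak call in every tumor, with its own input as background. The deposited lists hold interval starts and ends in base pairs, with no signal or other score. File names say that peaks were cleaned and merged, and what was removed is not given in the sources used here. The smallest gap between intervals was 201 bp, and joined or lost peaks alter covered length. The 4 input libraries were not analysed here. Depth is unknown, so no counting interval is given.

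Coverage was computed with Python 3.11.15 (pandas 2.3.3, numpy 2.4.6) from GENCODE M21 gene ends. Regions needed an overlap of at least 1 bp. A gene's TSS was its 5′ end. Per-tumor means were compared by two-sided exact permutation (scipy 1.17.1), and single genes with limma 3.58.1 (trend) in R 4.3.3. The limma fit was checked on simulated data with large shifts in well-covered genes only. Small differences at low coverage, as in most collagens, were not checked. p-values measure the spread between these tumors. Members, classes, lists and tests were chosen with earlier results of these data known. Genes named in full are the main fibrillar, basement membrane and type VI chains, and the collagens with the largest differences among those whose groups did not overlap. In the other lists such genes were named only in part, and not always with every tumor. Other collagens were named after their values were seen. The 181 listed genes matched 177 autosomal coding genes. Alternatives were other peak widths, joined peaks, equal peak numbers, other windows and starts, scaling, and leaving out each tumor. Leaving out gene pairs, and counting Col4a1 and Col4a2 once, was chosen after seeing the data.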

Additional observations from a re-analysis of the deposited data

How the results depend on the processing

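Over 18 planned settings and 3 added after seeing the data, the mean window differences of all collagens and of basement membrane collagens and the mean body difference kept their direction wherever they were computed. With 2 tumors a group, this says nothing of significance. The basement membrane difference was -15.7 points in windows of 2.5 kb either side, -3.46 with 25 kb and -8.77 for type IV alone. With class medians the difference of other collagens was 0 and the fibrillar minus basement membrane contrast -0.527. Without Col4a1 and Col4a2 the contrast was -0.300. With peaks of at least 1 kb, members higher in both control tumors numbered 4, higher in both test tumors 0, members with a control-only region 5 and such regions 11. Joining peaks within 1 kb left 13 control-only regions, and counting the 10 kb window alone left 5 in 5 members. With windows around every coding start 4 members were higher in both test tumors, and with scaling 1. When a region had to be covered at least halfway, 2 members held 4 test-only regions. Leaving out each tumor gave fibrillar differences of -2.63 to 0.966 (0.0861 without test 1), 9 to 14 members higher in control, 3 to 5 higher in test, 13 to 25 members with 23 to 96 control-only regions, and 2 to 12 members with 2 to 20 test-only regions. By construction, those counts of members and regions cannot fall with fewer tumors. limma called 0 collagens in each setting it was run in. No paired analysis was possible because the labels number no replicates, and the tumor numbers used here are names that tie no tumors together. Peak height and depth are unknown, so coverage mixes acetylation with sequencing depth.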

Other observations

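Col4a5 and Col4a6, the type IV chains left out because they are X-linked, also share a start region. Their common window was covered at 30.0% in control 1 and 20.7% in control 2, against 28.5% in test 1 and 21.05% in test 2, so the groups overlapped, unlike those of Col4a1 and Col4a2. Body coverage of Col4a5 was 3.48% and 1.34% in control and 2.53% and 1.75% in test tumors, and that of Col4a6 4.23% and 2.52% in control and 4.24% and 3.58% in test tumors.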
